A study of Mus musculus with 6 samples.

Results

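Chemokines and their receptors were compared between bone marrow cells of ASXL1-MT-transplanted and mock-transplanted mice. The members were the probe sets with 1 gene symbol in the platform annotation whose symbol was Ccl, Ccr, Cxcl, Cxcr, Cx3cl, Cx3cr, Xcl or Xcr followed by a number, without Cxcl1, Cxcl2, Cxcl12, Cxcr2, Cxcr4 and Ccr3. They came to 68 of 45037 probe sets, for 44 of 18193 genes, of which 30 encode ligands and 14 encode receptors. Another 4 probe sets with such a symbol also carried symbols of other genes and were left out. A single probe set stood for 28 of the genes, and the other 16 genes had several.

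The ASXL1-MT group, with 3 arrays, came from mice with a disease like myelodysplastic syndrome. The mock group, also with 3 arrays, was the normal control. Both were myeloid marrow cells, kept after magnetic beads had removed cells bound by antibodies to TER-119, which marks red cell precursors, to B220, which marks B cells, and to CD3e, which marks T cells. The series text gives that step for both groups, and the source label for mock alone. The labels do not give the strain, age or sex of the mice, the allele, the vector or the marrow cells transplanted, how the mock was made, or whether the 3 samples of a group were separate mice, so the p-values given here cover only the spread between these arrays, and that spread may be technical.

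Chemokines are small secreted proteins that guide the movement of white blood cells. They are named by the spacing of their first cysteines (CC, CXC, XC and CX3C), and each acts through receptors with several membrane passes that signal through inhibitory G proteins. Receptors of one cell often bind several ligands, and most inflammatory ligands share receptors. In marrow they are known for retaining and releasing neutrophils and monocytes and for guiding lymphoid progenitors to other organs.

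Each probe set was centred on its median over the 6 arrays before deposit, so a value shows only how an array stood relative to the others, and no level can be compared between genes. Values are given as centred log2 signals, and a change is the mean of the 3 ASXL1-MT arrays less the mean of the 3 mock arrays. The log base is not stated and was taken as 2, so every fold given rests on that reading. Dim probe sets could be told apart in part from the rounding of the values. By this rule 21 of the 68 member probe sets were bright (30.9%, against 38.2% of all probe sets). Bright is read here as a log value of 8 or more on the 3 highest arrays. The rule can misplace some probe sets, since dimmer values can pass the same check. Within groups the bright members had a median SD of 0.37 and the other members one of 1.10, against 0.18 and 0.81 in the same classes over all probe sets. A change in a dim probe set therefore needs to be large to stand out.

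A bright probe set was found for 12 of 13 neutrophil markers, 10 of 16 monocyte and macrophage markers, 11 of 13 dendritic cell markers, 6 of 8 basophil and mast cell markers and 4 of 5 eosinophil markers. For the lineages targeted by the depletion these were 5 of 11 for T cells, 3 of 12 for B cells and 3 of 8 for red cells, and for NK cells, which the antibodies do not target, 6 of 11. Absence cannot be read from centred values. A marker can be bright through 1 group alone, so these counts do not show that a cell type was present in both groups. Between the groups 6 of the neutrophil markers were lower in ASXL1-MT and 9 of 13 dendritic cell markers were higher by limma at an adjusted p under 0.05, with 0 of the former higher and 0 of the latter lower. The red cell markers averaged 1.68, 0.77 and 0.16 in ASXL1-MT arrays and -1.28, -0.94 and -0.46 in mock arrays, with 1 of 8 called, Alas2, which was higher. The NK cell markers averaged -2.26 in mock replicate 1, against -0.05 to 0.42 on the other 5 arrays. In mixed cells, fewer cells of a type and less RNA per cell cannot be told apart, and this holds for every result below.

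Of the 44 genes, 2 fell in ASXL1-MT marrow, the CC ligand Ccl6 and its receptor Ccr1, and 3 rose, the receptors Ccr6, Ccr9 and Cxcr6 (limma, Benjamini-Hochberg adjusted p under 0.05 over all genes). Ccl6 was lower by 2.76-fold and Ccr1 by 2.36-fold, while Ccr6 was higher by 5.62-fold, Ccr9 by 5.18-fold and Cxcr6 by 9.14-fold. The sizes of these 3 rises are uncertain. No probe set of Ccr6 or Cxcr6 was bright, and of those of Ccr9 only 1427419_x_at was. The changes of the Ccr9 probe sets ran from -0.15 to 3.89. These 5 genes are 11.4% of the members, and the share of all genes called was 11.4%, so the count by itself is not particular to chemokines. By direction, 3 of 44 rose where 6.63% of all genes did, and 2 fell where 4.75% of all genes did. At an unadjusted p under 0.05, 10 of the 44 passed (22.7%, against 29.1% of all genes). The groups did not overlap in 11 of the 44 genes (25%), against 37.9% of all genes, with 7 higher (23.5% of all genes) and 4 lower (14.4%). The median change of the 44 genes was -0.05, and that of all genes was 0.11.

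Among single probe sets 8 of 68 passed (11.8%, against 8.1% of all probe sets), with 4 higher (4.73% of all probe sets) and 4 lower (3.37%). They were both probe sets of Ccl6, both of Ccr1, the only probe set of Ccr6, 1 of 5 for Ccr9, 1 of 2 for Cxcl9 and 1 of 2 for Cxcl14. At an unadjusted p under 0.05, 16 passed (23.5%, against 26.3%). The groups did not overlap in 18 of the 68 (26.5%), against 35.4% of all probe sets, with 12 higher (21.7% of all probe sets) and 6 lower (13.7%). When bright probe sets were fitted alone, 5 of 21 members passed, against 39.4% of all bright probe sets, with 1 higher (23.6%) and 4 lower (15.8%). Since brightness is read from the 3 highest arrays, a probe set can be bright through 1 group alone, and nothing is read from these counts. The count of 8 was the same with quantile normalization, cyclic loess or equal array medians, with the same 8 probe sets each time. It fell to between 0 and 2 with any 1 array left out, as the count over all probe sets fell too, from 3646 to between 66 and 1142.

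**Figure D1:**
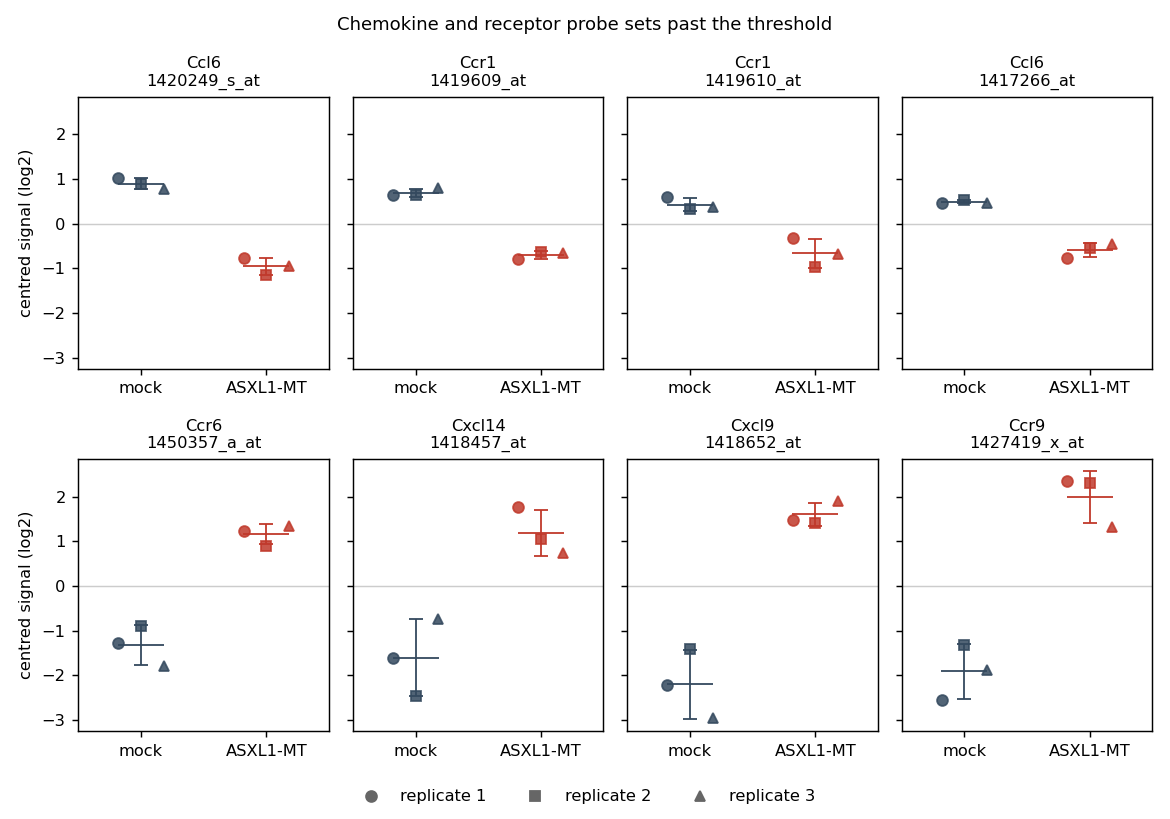
Centred log2 signal of the 8 member probe sets that passed, 1 panel each, with a point for each array (marker shape gives the replicate number), a horizontal line at the group mean and bars of 1 SD (n = 3). The 3 ASXL1-MT arrays lay below all 3 mock arrays for Ccl6 and Ccr1 and above them for Ccr6, Cxcl14, Cxcl9 and the Ccr9 probe set 1427419_x_at.

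The stretch of genome just before the start of some of these genes is printed because genes that change in the same samples are often compared for shared motifs. RefSeq promoters of assembly GRCm38.p6 were at hand for 31 of the 44 genes (35 start sites), and the 250 bases before each start site were searched on both strands for the NF-kappaB motif, for the interferon response motif and for the STAT motif TTCNNNGAA. Of the genes with a call, as a gene or by a probe set, Ccr6 and Cxcl14 held a match, and their windows are shown with the matches in capitals. The windows of Ccl6 and Ccr1, the lower pair, held no match to any of the 3 motifs and are shown beside them. Each runs 5′ to 3′ and ends at the base before the start site.
Ccr6, first start site, chr17:8235793-8236042, plus strand: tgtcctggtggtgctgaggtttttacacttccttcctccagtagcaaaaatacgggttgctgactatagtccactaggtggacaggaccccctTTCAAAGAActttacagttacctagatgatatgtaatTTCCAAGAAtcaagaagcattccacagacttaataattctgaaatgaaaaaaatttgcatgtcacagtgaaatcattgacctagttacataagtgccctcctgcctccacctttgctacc
Ccr6, second start site, chr17:8242276-8242525, plus strand: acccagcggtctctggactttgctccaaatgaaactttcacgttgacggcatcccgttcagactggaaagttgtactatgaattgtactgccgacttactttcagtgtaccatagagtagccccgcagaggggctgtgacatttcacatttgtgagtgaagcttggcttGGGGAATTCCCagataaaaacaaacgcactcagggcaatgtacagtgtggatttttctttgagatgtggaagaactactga
Cxcl14, chr13:56296552-56296801, minus strand: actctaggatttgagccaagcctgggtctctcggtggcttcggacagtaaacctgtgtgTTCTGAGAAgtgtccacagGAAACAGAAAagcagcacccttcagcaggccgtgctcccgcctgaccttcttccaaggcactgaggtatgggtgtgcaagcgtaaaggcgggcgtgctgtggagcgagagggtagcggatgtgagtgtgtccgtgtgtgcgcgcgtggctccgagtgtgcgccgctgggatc
Ccl6, chr11:83593088-83593337, minus strand: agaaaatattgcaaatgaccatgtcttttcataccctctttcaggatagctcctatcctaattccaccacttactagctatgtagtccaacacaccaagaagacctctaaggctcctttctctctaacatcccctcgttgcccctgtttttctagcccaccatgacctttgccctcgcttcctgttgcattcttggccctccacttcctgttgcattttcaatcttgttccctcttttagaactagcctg
Ccr1, chr9:123968693-123968942, minus strand: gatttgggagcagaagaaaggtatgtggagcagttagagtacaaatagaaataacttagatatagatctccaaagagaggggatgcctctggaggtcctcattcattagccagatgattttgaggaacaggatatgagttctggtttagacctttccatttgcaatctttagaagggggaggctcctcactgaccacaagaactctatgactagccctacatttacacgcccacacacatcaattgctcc

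The first window of Ccr6 held 2 STAT motifs, and its second held 2 overlapping matches to the NF-kappaB motif. Cxcl14 held 1 interferon response motif and 1 STAT motif. The windows of Ccr9, Cxcr6 and Cxcl9 held none of the 3. Over all 32851 promoter windows the NF-kappaB motif was found in 3.90%, the interferon response motif in 2.98% and the STAT motif in 7.02%. Among the 35 member windows these were 5, 2 and 4 (14.3%, 5.71% and 11.4%). The NF-kappaB matches lay before Ccl9, Ccl20, Ccr6, Cxcl3 and Cxcl10, of which only Ccr6 passed the test of expression. A match is a description of letters and not a bound site.

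Ccl6 and Ccr1 had the smallest SEs of the 5 called genes. Ccl6 is a mouse CC chemokine made by myeloid cells, and it acts through Ccr1, a receptor of neutrophils and monocytes. The gene value of Ccl6 was -0.77, -0.84 and -0.71 in ASXL1-MT replicates 1 to 3 and 0.75, 0.70 and 0.62 in mock replicates 1 to 3. All ASXL1-MT arrays were below all mock arrays, and the 3 values of each group lay close together. The change was -1.46 (SE 0.13, adjusted p = 0.00821 by limma). Its probe sets were both bright, with changes of -1.08 for 1417266_at (adjusted p = 0.0249) and -1.85 for 1420249_s_at (adjusted p = 0.0145), so that both fell but by different amounts. The gene kept its call in all 6 fits with 1 array left out, with changes from -1.50 to -1.43 and adjusted p from 0.0305 to 0.0472. Among probe sets 1417266_at passed in 0 of those 6 fits (adjusted p from 0.0582 to 0.0899) and 1420249_s_at in 2 (adjusted p from 0.0382 to 0.0752).

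Ccr1 had gene values of -0.56, -0.80 and -0.67 in the ASXL1-MT arrays and 0.62, 0.48 and 0.58 in the mock arrays. The groups again did not overlap. The change was -1.24 (SE 0.14, adjusted p = 0.0125 by limma), with -1.39 for 1419609_at (adjusted p = 0.0163) and -1.09 for 1419610_at (adjusted p = 0.0467), both bright. Without ASXL1-MT replicate 2 its change was -1.18 (adjusted p = 0.0507), and without replicate 3 it was -1.24 (adjusted p = 0.0614), while the other 4 such fits kept the call. Among probe sets 1419609_at passed in 1 of the 6 fits (adjusted p from 0.0457 to 0.0767) and 1419610_at in 0 (adjusted p from 0.058 to 0.151). Several marker lists stood lower in the same arrays. The neutrophil markers averaged -0.58, -0.59 and -0.72 in ASXL1-MT arrays and 0.43, 0.62 and 0.66 in mock arrays, with 6 of 13 lower. Basophil and mast cell markers averaged -1.18, -0.57 and -0.67 against 0.47, 0.77 and 0.90, with 2 of 8 lower, and megakaryocyte markers -0.52, -0.79 and -1.09 against 0.17, 1.03 and 1.08, with 5 of 10 lower. Monocyte and macrophage markers averaged -0.19, -0.11 and -0.22 against -0.85, 0.01 and 0.15, which overlapped, with 1 of 16 higher and 2 lower. The part of these cells in the fall of Ccl6 and Ccr1 was not tested.

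The other ligands of the macrophage inflammatory protein group did not pass. Ccl9, also a ligand of Ccr1, had bright probe sets and little spread, at -0.22, 0.05 and -0.04 against -0.06, 0.07 and 0.08. The groups overlapped, and its change was -0.10 with a 95% interval from -0.46 to 0.26. That interval lies wholly above the interval of Ccl6, its neighbour in the genome, which ran from -1.78 to -1.15, and no test of the difference was run. Ccl3 and Ccl4, which attract monocytes and T cells, were uneven within groups. Ccl3 was 1.86, -1.73 and -0.51 in the ASXL1-MT arrays and -0.29, 0.29 and 1.10 in the mock arrays. Ccl4 was 1.76, -2.89 and -1.46 against -0.67, 0.67 and 1.36. In both genes ASXL1-MT replicate 1 was the highest of the 6 arrays and replicate 2 the lowest, and the groups overlapped. Their changes were -0.49 (95% interval -2.95 to 1.97) and -1.31 (-4.58 to 1.95). Without ASXL1-MT replicate 1 they were -1.48 and -2.63, and neither gene passed (adjusted p = 0.208 and 0.132 by limma). With ASXL1-MT replicate 2 left out instead they were 0.31 and -0.30 (adjusted p = 0.861 and 0.906 by limma). The sign of Ccl3 thus depended on the array left out.

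Ccl5, which attracts T cells and is made by activated T and NK cells, was 0.46, -0.46 and -0.76 in the ASXL1-MT arrays and -2.13, 2.97 and 2.48 in the mock arrays. Mock replicate 1 lay below all other arrays and mock replicates 2 and 3 above them. The change was -1.36 (95% interval -4.99 to 2.26, adjusted p = 0.592 by limma). Without mock replicate 1 it was -2.98, which passed among genes (adjusted p = 0.0469) and not among probe sets (adjusted p = 0.0646). With mock replicate 2 left out instead it was -0.43 (adjusted p = 0.892 by limma). Xcl1, a ligand also made by NK and CD8 T cells, had the same order of mock arrays, with -1.75, 2.09 and 1.2 in mock and 0.28, -0.28 and -0.31 in ASXL1-MT. Its change was -0.62, and -1.75 without mock replicate 1, where it did not pass (adjusted p = 0.0772). With mock replicate 2 left out instead the change turned positive, at 0.17 (adjusted p = 0.933 by limma). Of the 11 NK cell markers 9 were lowest of the 6 arrays in mock replicate 1, where they ranged from -6.17 for Gzma to 0.32 for Nkg7, with Prf1 at -0.28 and Gzmb at 0.14. Low values were not particular to NK cell markers, since 9 of 13 dendritic cell markers were also lowest in mock replicate 1. Median values there were -1.65 for dendritic cell, -1.47 for red cell and -1.15 for T cell markers. For NK cell markers the median was -1.78, and for neutrophil markers 0.07. In mock replicates 2 and 3 the NK cell markers averaged 0.42 and 0.09, against -0.05, 0.34 and 0.26 in ASXL1-MT. The part of any of these cells in Ccl5 and Xcl1 was not tested.

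The CC ligands placed in the monocyte-attracting group were lower on average in all 4 cases, and 0 of 4 passed (median change -0.73). Ccl2, the main one, was 0.36, -3.62 and -3.16 in the ASXL1-MT arrays and -0.36, 1.19 and 1.52 in the mock arrays. ASXL1-MT replicates 2 and 3 were far below the other arrays, and replicate 1 was above mock replicate 1, so that the groups overlapped. Its change was -2.92 (95% interval -5.94 to 0.09, adjusted p = 0.181 by limma). Without ASXL1-MT replicate 1 it was -4.17, which passed among genes (adjusted p = 0.0465) and not among probe sets (adjusted p = 0.0585). With ASXL1-MT replicate 2 left out instead it was -2.18 (adjusted p = 0.370 by limma). Ccl12 had a smaller but steadier difference, with -0.08, -0.20 and -0.25 against 0.22, 0.43 and 0.08 and no overlap, and a change of -0.42 (adjusted p = 0.147). Ccl7 was -0.01, 0.01 and -2.68 against 0.41, -0.28 and 0.30, where 1 array made most of the change of -1.04, which was -0.14 without ASXL1-MT replicate 3. Ccl8 had a change of -0.11 (95% interval -0.65 to 0.43).

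The neutrophil-attracting CXC ligands measured here were also lower on average, with 0 of 3 past the test. Cxcl3 had the largest change of any member, -4.54, but with an SE of 1.59 (adjusted p = 0.132 by limma). Its values were -0.44, -1.47 and -5.92 in the ASXL1-MT arrays and 0.44, 2.55 and 2.80 in the mock arrays. The groups did not overlap, but they spread widely and its probe set was not bright. The change was -2.89 without ASXL1-MT replicate 3 and -5.63 without replicate 1. Cxcl5, another neutrophil attractant, was 0.33, -3.18 and -0.59 against 0.27, 1.01 and -0.27, which overlapped, and its change of -1.48 was -0.47 with ASXL1-MT replicate 2 left out and -2.22 with replicate 1 left out. Cxcl15, a chemokine of the lung, was 0.04, 0.04 and -1.22 against 0.29, -0.62 and -0.07, with overlap and a change of -0.25 (95% interval -1.36 to 0.87).

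**Figure D2:**
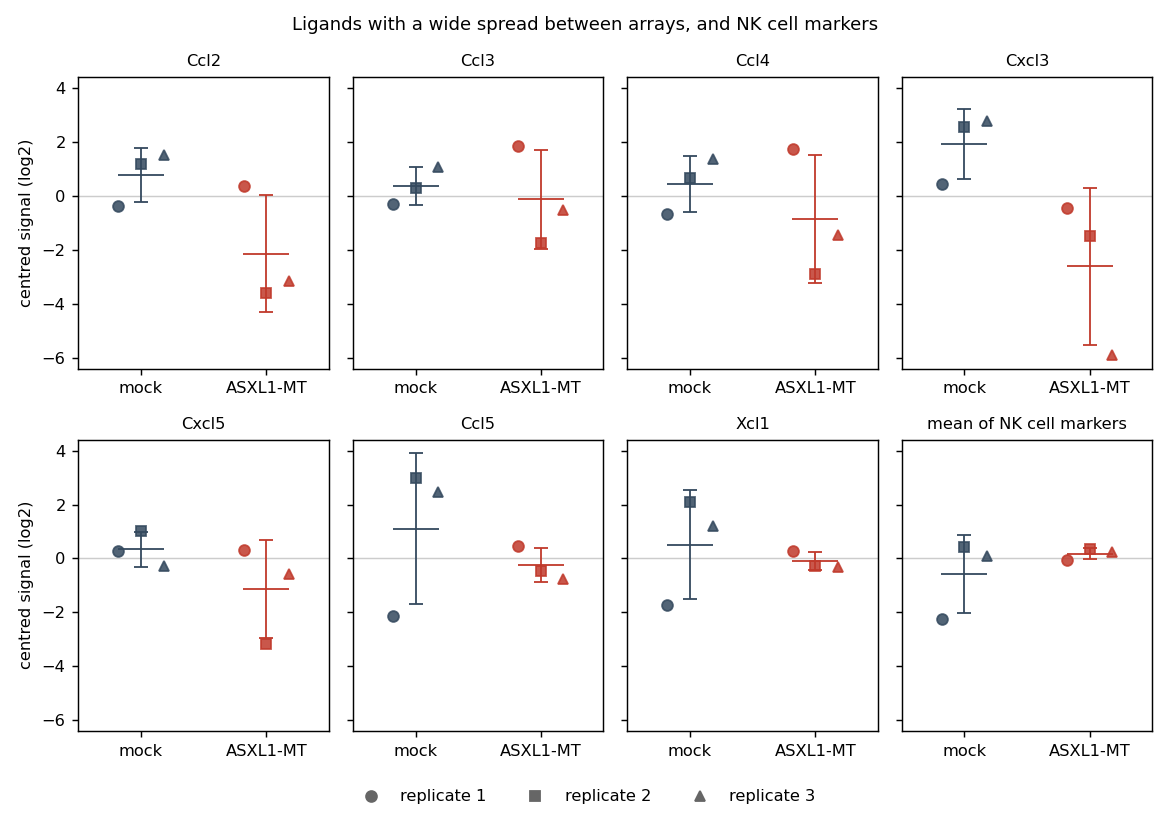
Centred log2 signal of 7 ligand genes with a wide spread within groups and the mean of 11 NK cell marker genes, with a point for each array, a line at the group mean and bars of 1 SD (n = 3). ASXL1-MT replicate 1 (circle) lay highest of the 6 arrays for Ccl3 and Ccl4, and mock replicate 1 lay lowest for Ccl5, Xcl1 and the NK cell markers.

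Of the 3 ligands induced by interferon, which all act on Cxcr3, only Cxcl9 had a probe set that passed. Its probe set 1418652_at was 1.49, 1.42 and 1.90 in the ASXL1-MT arrays and -2.22, -1.42 and -2.95 in the mock arrays. The groups lay far apart, and the change was 3.80 (SE 0.43, adjusted p = 0.0181 by limma), a 13.9-fold difference. That probe set was not bright, so the size of the difference is uncertain. Over the 6 fits with 1 array left out its change lay between 3.42 and 4.19. The call held in 2 of them, which left out mock replicate 2 (adjusted p = 0.0473) or mock replicate 3 (adjusted p = 0.0498). Its other probe set, 1456907_at, had 0.65, 0.07 and -0.07 against -2.70, 1.00 and -0.24, with a change of 0.86 (adjusted p = 0.634). Averaged over both, Cxcl9 had a change of 2.33 (adjusted p = 0.063), and 2.94 without mock replicate 2, where it passed (adjusted p = 0.0378). This gene value was 1.07, 0.74 and 0.92 in the ASXL1-MT arrays and -2.46, -0.21 and -1.60 in the mock arrays.

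Cxcl10 and Cxcl11, induced by the same signals, overlapped between the groups. Cxcl10 was 0.76, -0.14 and -1.44 against -0.20, 1.08 and 0.14, a change of -0.61 (95% interval -2.25 to 1.03). Cxcl11 was 0.05, 0.11 and -0.06 against 0.33, -1.91 and 0.35, where mock replicate 2 was low, and its change was 0.44 (95% interval -1.21 to 2.1). Cxcr3, the receptor of all 3, was -0.40, -0.01 and 0.09 against -0.97, 0.01 and 0.16, a change of 0.16 (95% interval -0.73 to 1.05).

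Among the other CXC ligands Cxcl14, a chemokine of epithelia and connective tissue, had a probe set higher in ASXL1-MT. Probe set 1418457_at was 1.76, 1.05 and 0.74 against -1.61, -2.45 and -0.74, with no overlap. The change was 2.79 (SE 0.52, adjusted p = 0.0402 by limma), it was not bright, and the call was lost in all 6 fits with 1 array left out, where the change ran from 2.36 to 3.21 and the adjusted p from 0.0617 to 0.121. The second probe set, 1418456_a_at, had a change of 0.91 (adjusted p = 0.369), and the gene value, with a change of 1.85, did not pass (adjusted p = 0.0797). Markers of stroma averaged -0.20, 0.28 and 0.25 in the ASXL1-MT arrays and -1.03, -0.46 and -0.16 in the mock arrays, with 2 of 10 higher and 1 lower, and their part in this was not tested. The other 3 overlapped between the groups. Cxcl13, which attracts B cells, was 0.80, 0.28 and -1.23 against 0.37, -2.77 and 0.05, a change of 0.74 (95% interval -1.82 to 3.29). Cxcl16, the ligand of Cxcr6, was -0.38, -0.39 and 0.03 against 0.49, 0.24 and -0.35, a change of -0.38 (-1.06 to 0.31). Cxcl17, a chemokine of mucosal tissue, was -0.94, 1.17 and 2.14 against 0.94, -1.18 and -1.56, a change of 1.39 (-1.23 to 4.0).

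The remaining ligands gave no call. Of the 5 CC ligands of eosinophil and type 2 traffic, 3 were positive and 2 negative, from -0.50 for Ccl11 to 0.83 for Ccl22, and the groups overlapped in 5 of 5. Ccl22, a ligand of Ccr4, was 0.61, -1.38 and 0.91 against -0.34, -2.34 and 0.34. Ccl1, a ligand of Ccr8, was 0.92, -1.38 and 1.01 against 1.03, -1.48 and -0.92, a change of 0.64. Ccl11, or eotaxin, was 0.09, 0.22 and -1.76 against -0.09, 1.05 and -0.93. In Ccl22 and Ccl1 replicate 2 was the lowest array of each group. Ccl17 and Ccl24 had changes of -0.41 and 0.10. Of the 4 ligands of lymphoid and epithelial tissue, Ccl28, which attracts plasma cells to mucosa, came nearest, with gene values of -0.05, 0.33 and 0.57 against -0.43, -0.09 and -0.14 and a change of 0.50 (adjusted p = 0.196 by limma). Its probe set 1455577_at had a change of 1.07 (adjusted p = 0.0777). Ccl25, the ligand of Ccr9, was -0.34, 0.11 and 0.01 against -0.04, -0.50 and 0.05, and Ccl27a, a chemokine of skin, 0.02, -0.21 and 0.47 against -0.32, -0.02 and 0.08. Both overlapped between the groups, with changes of 0.09 and 0.18, and Ccl20 had a change of 0.05. Cx3cl1, a membrane-bound ligand, was -1.11, 0.54 and -0.92 against 0.84, -0.03 and -0.89, and had changes from -1.29 to 0.20 over 4 probe sets, with 0 called.

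**Figure D3:**
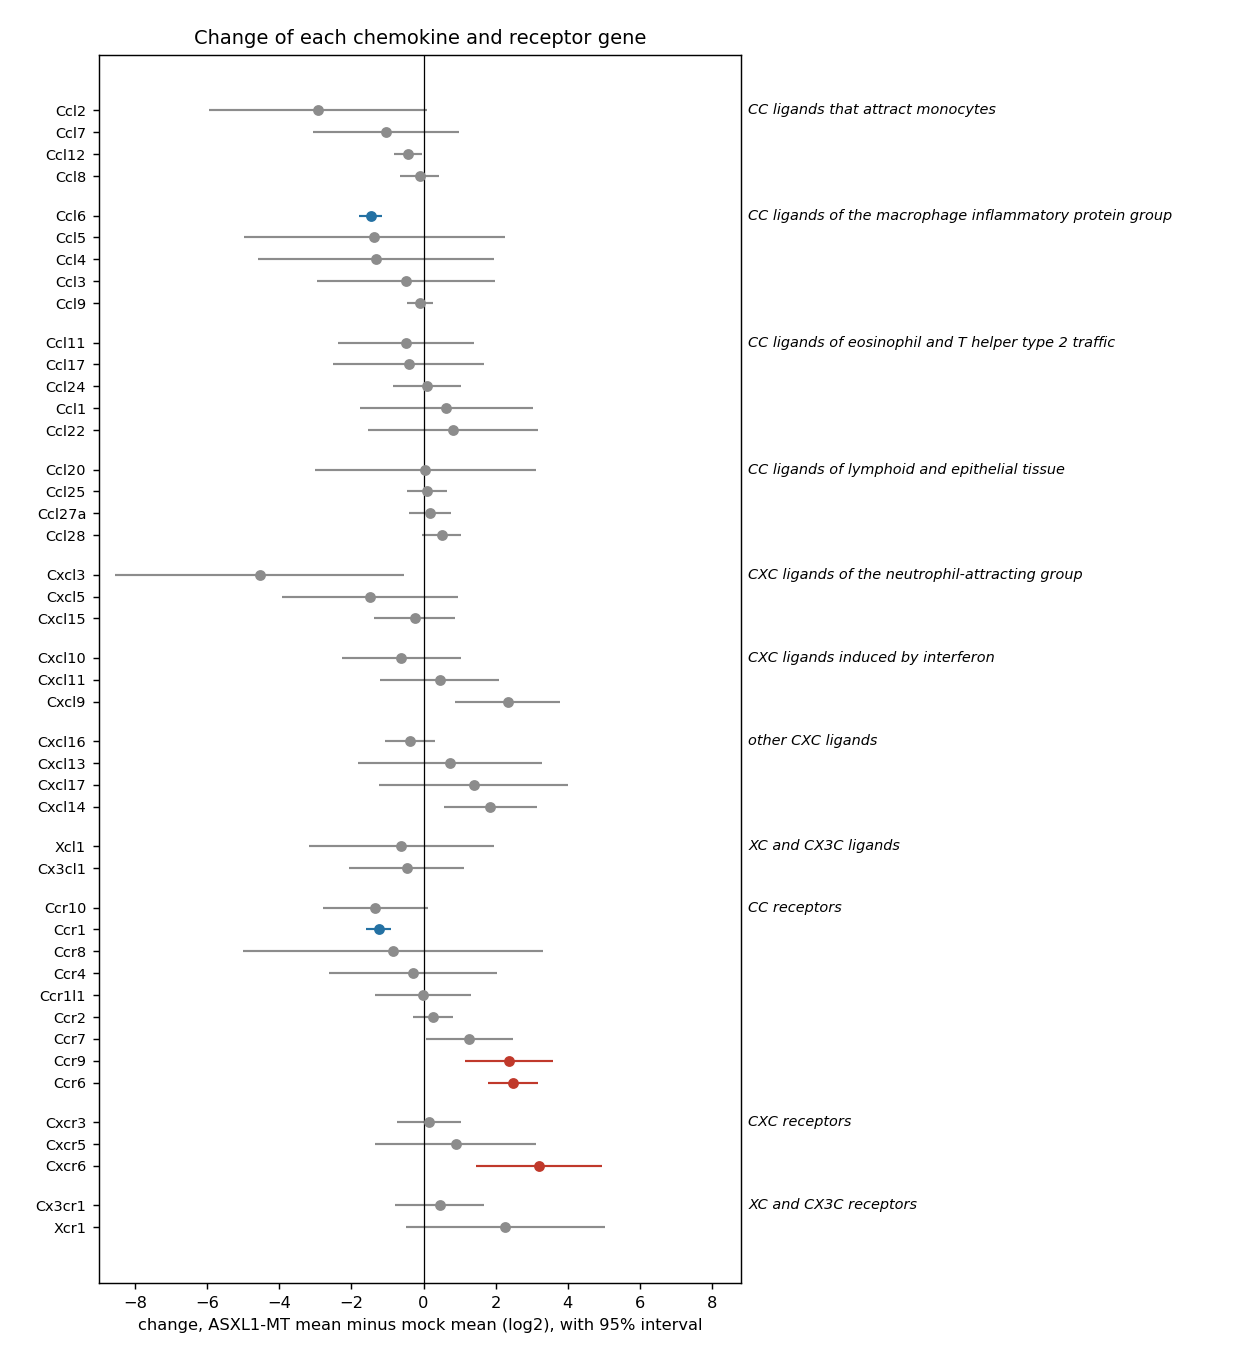
Change of each of the 44 member genes (ASXL1-MT mean minus mock mean, log2 scale) with its unadjusted 95% interval from limma, grouped by role. Blue marks the 2 genes that fell, Ccl6 and Ccr1, red the 3 that rose, Ccr6, Ccr9 and Cxcr6, and grey the 39 that did not pass.

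Receptors held 4 of the 5 called genes, with 3 of 14 higher and 1 lower, against 0 of 30 ligands higher and 1 lower, where 6.63% of all genes were higher and 4.75% lower. This split came from gene means. Among single probe sets, 1418652_at of Cxcl9 and 1418457_at of Cxcl14, both ligands, were called higher. With the probe set of smallest spread for each gene, the ligands Cxcl9, Cxcl14 and Ccl28 passed as higher, and Ccr9 had a change of -0.15. The difference between ligands and receptors was not tested. Ccr6, which guides B cells, dendritic cells and some T cells to its ligand Ccl20, was 1.24, 0.91 and 1.34 in the ASXL1-MT arrays and -1.28, -0.91 and -1.79 in the mock arrays. The groups were well separated. The change was 2.49 (SE 0.28, adjusted p = 0.0125 by limma among genes, and 0.0182 for its probe set, which was not bright). It kept the call among genes in 5 of 6 fits with 1 array left out, and lost it without ASXL1-MT replicate 3, where the change was 2.40 (adjusted p = 0.0586). As a single probe set it passed in 0 of those 6 fits, with adjusted p from 0.0504 to 0.0805.

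Ccr9, the receptor for Ccl25 that brings progenitors to the thymus and lymphocytes to the gut and is carried by plasmacytoid dendritic cells, was 1.67, 1.70 and 0.57 in the ASXL1-MT arrays and -0.78, -0.55 and -1.85 in the mock arrays. The change was 2.37 (SE 0.48, adjusted p = 0.0389 by limma). Its 5 probe sets did not move alike. Probe set 1427419_x_at was 2.34, 2.29 and 1.31 against -2.54, -1.31 and -1.87, a change of 3.89 (adjusted p = 0.0182), and it was the only bright one, through the 3 ASXL1-MT arrays, so its brightness adds nothing to its call. Its name marks a probe set that can share probes with other transcripts. The pair 1421919_a_at and 1421920_a_at had changes of 3.18 (adjusted p = 0.0726) and 3.26 (adjusted p = 0.0835), both without overlap. Probe set 1436065_at was high only in ASXL1-MT replicates 1 and 2, at 2.82 and 2.08, with -0.09 in replicate 3, and 1442758_at had a change of -0.15 (adjusted p = 0.868). The gene lost its call in all 6 fits with 1 array left out, with changes from 1.98 to 2.74 and adjusted p from 0.071 to 0.121. With the probe set of smallest spread the gene's change was -0.15, which reversed its sign.

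Cxcr6, the receptor for Cxcl16 on T cells, NKT cells and innate lymphoid cells, was 1.03, 0.97 and 0.89 in the ASXL1-MT arrays and -3.21, -0.66 and -2.82 in the mock arrays. The ASXL1-MT arrays were alike and the mock arrays were not. The change was 3.19 (SE 0.69, adjusted p = 0.0456 by limma). Neither probe set passed by itself with all arrays, with 4.43 for 1422812_at (adjusted p = 0.0568) and 1.95 for 1425832_a_at (adjusted p = 0.0677), and neither was bright. Under the trend and robust options of limma the gene did not pass (adjusted p = 0.0647). It passed only without mock replicate 2, at 3.98 (adjusted p = 0.0314), and in the other 5 fits with 1 array left out the change ran from 2.71 to 3.23 with adjusted p from 0.105 to 0.135.

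**Figure D4:**
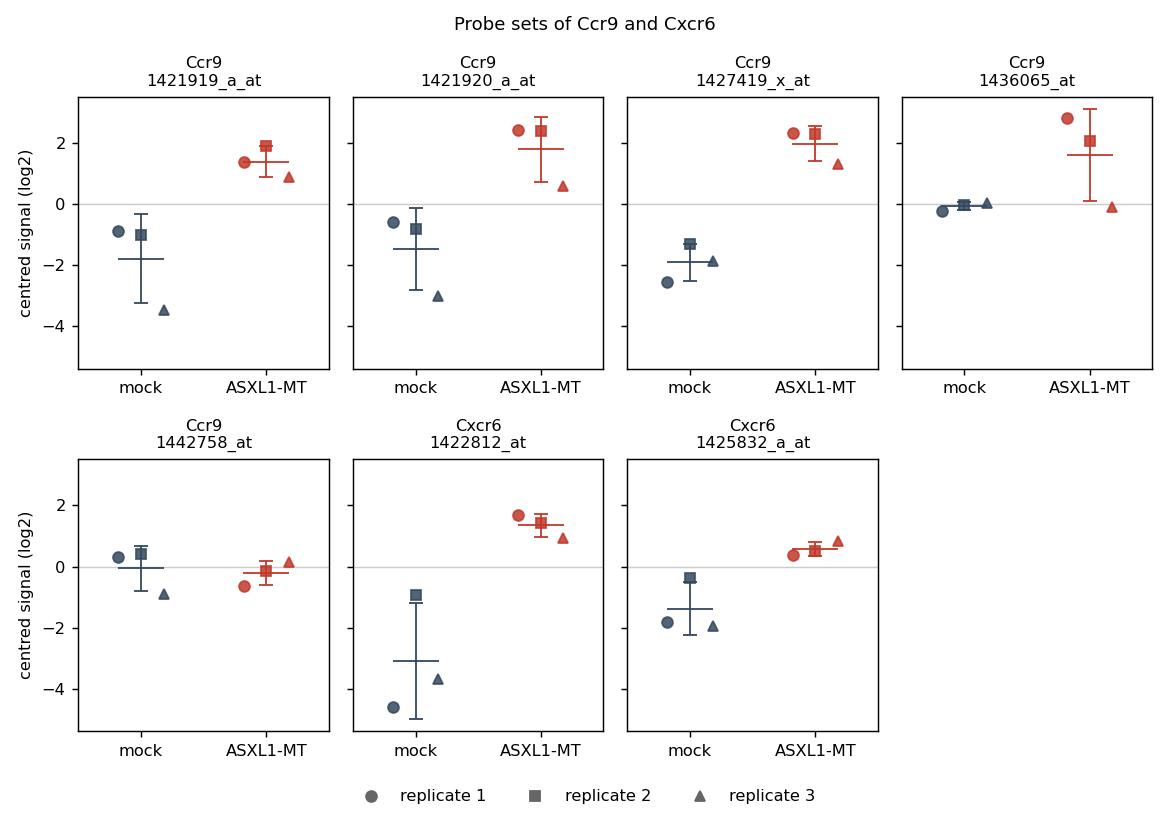
Centred log2 signal of the 5 probe sets of Ccr9 and the 2 of Cxcr6, with a point for each array, a line at the group mean and bars of 1 SD (n = 3). Of the Ccr9 probe sets 3 separated the groups, 1436065_at was high in 2 of the 3 ASXL1-MT arrays, and 1442758_at did not separate them.

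Markers of the cells that carry these receptors were set beside them. The dendritic cell markers averaged 1.04, 0.63 and 0.75 in the ASXL1-MT arrays and -1.76, -0.69 and -0.89 in the mock arrays, with 9 of 13 higher. Among B cell markers 4 of 12 were higher and 0 lower, with a mean of 0.09, -0.19 and 0.02 against -0.44, 0.40 and -0.50. Of these 12 markers 7 had negative changes, and the median change was -0.11. Among T cell markers 3 of 11 were higher, Cd8a, Cd8b1 and Cd27, and 0 lower, while 4 had negative changes, of which the most negative was Cd3d at -2.82 (adjusted p = 0.0613 by limma), without overlap, with a mean of 0.70, 0.30 and -0.11 against -1.03, 0.19 and -0.28. Among NK cell markers 3 of 11 were higher and 1 lower. Several of these genes are shared by other cells, and their part in the rise of Ccr6, Ccr9 and Cxcr6 was not tested.

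The ligands of the higher receptors had no call. The intervals of the change were -3.02 to 3.12 for Ccl20, -0.47 to 0.65 for Ccl25 and -1.06 to 0.31 for Cxcl16. For Ccl25 and Cxcl16 the upper bound lay below the lower bound for the receptor, 1.15 for Ccr9 and 1.45 for Cxcr6, and the differences were not tested.

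Other receptors had wider or smaller differences. Ccr7, which brings dendritic cells and T cells to lymph nodes, was 0.59, 0.05 and 0.05 against -1.32, -0.05 and -1.76, a change of 1.27 (adjusted p = 0.157 by limma), with no overlap but a narrow gap. Ccr2, needed for monocytes to leave the marrow, had 4 bright probe sets with changes of 0.34, -0.16, 0.54 and 0.32. Its gene value was -0.21, 0.24 and 0.39 against -0.28, -0.19 and 0.12, with overlap, and had a change of 0.26 with a 95% interval from -0.30 to 0.81, so that a change as large as that of Ccr1 lay outside it. Xcr1, the Xcl1 receptor of cross-presenting dendritic cells, was -0.04, 0.79 and 0.35 against -4.22, 0.04 and -1.52. Its change of 2.27 (adjusted p = 0.243) was 1.11 without mock replicate 1. Cx3cr1, a receptor of monocytes, was 0.60, -0.87 and 0.26 against -0.64, -0.91 and 0.19, a change of 0.45 (95% interval -0.79 to 1.69). Cxcr5, which brings B cells to follicles, was 0.19, -0.54 and 0.45 against -0.19, 0.41 and -2.78, a change of 0.89 (-1.35 to 3.13). Ccr10, the receptor of Ccl27 and Ccl28, was -1.42, 0.07 and -2.08 against 0.12, 0.52 and -0.07, a change of -1.33 (-2.79 to 0.13). All 3 overlapped between the groups. Ccr4, Ccr8 and the receptor-like gene Ccr1l1 had changes of -0.29, -0.84 and -0.01, with groups that overlapped.

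Many of these genes lie in clusters. By the gene order of the RefSeq table, which held 43 of the 44, the receptors Ccr9, Cxcr6, Xcr1, Ccr1, Ccr1l1 and Ccr2 follow each other with at most 1 other protein-coding gene between neighbours. That run of 6 held 3 of the 5 called genes, where 11.4% of all genes were called, and they did not move one way. Ccr9 and Cxcr6, at one end, rose, while Ccr1 fell. The run Ccl5, Ccl9, Ccl6, Ccl3 and Ccl4 had 1 call, Ccl6, with 5 of 5 changes negative. These are the same genes as the macrophage inflammatory protein group above, and the sign of Ccl3 depended on the array left out. In the run Ccl2, Ccl7, Ccl11, Ccl12, Ccl8 and Ccl1, 5 of 6 changes were negative and 0 were called. Over all 18193 genes 7889 changes were negative, and no pattern is read from the runs.

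Of 66 other genes of the pathway that were measured, 7 were called higher and 5 lower, which is read against 6.63% and 4.75% of all genes. The 7 include Ptk2b, whose sign depended on the probe set, so no direction is given for it. The median change of the 66 was -0.13. Of the 2 platelet chemokines, Pf4 fell by 2.44 on the log2 scale (SE 0.43, adjusted p = 0.0279 by limma), with -1.03, -0.61 and -1.43 against 0.61, 1.65 and 2.0. Ppbp had a change of -2.31 (adjusted p = 0.208). Pf4 kept its call in 1 of 6 fits with 1 array left out. It is itself 1 of the 10 megakaryocyte markers. Of 6 decoy and atypical receptors, 0 passed. Ccrl2, which binds chemerin at the cell surface, was -0.22, -2.73 and -2.24 against 0.22, 1.09 and 0.79, a change of -2.43 (adjusted p = 0.0882).

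Inside the cell, Arrb2, the arrestin that ends receptor signals and takes receptors into the cell, was lower by 2.76-fold (change -1.47, SE 0.14, adjusted p = 0.0101 by limma). Its values were -0.64, -0.71 and -0.70 in the ASXL1-MT arrays and 0.92, 0.80 and 0.64 in the mock arrays. It passed in 5 of 6 fits with 1 array left out (adjusted p from 0.0332 to 0.0554). Grk3, a kinase that marks active receptors for arrestin, was higher by 2.05-fold, and Rgs10, which speeds the shut-off of G proteins, by 1.76-fold. They kept their calls in 2 and 0 of those 6 fits. The G protein subunit Gng11 was lower by 12.8-fold, with -1.22, -3.80 and -1.86 against 1.53, 1.40 and 1.22, the only 1 of 9 G protein genes to pass. Its change was -2.92 without ASXL1-MT replicate 2 and -4.21 without ASXL1-MT replicate 1, and these were the 2 of 6 such fits in which it passed. Rac2, a GTPase of blood cells that drives movement, was lower by 2.0-fold and passed in 1 of the 6. Ptk2b, a kinase downstream of chemokine receptors, had a change of 1.06 (adjusted p = 0.0149), but of -0.53 on bright probe sets alone (adjusted p = 0.0208) and of -0.53 with its probe set of smallest spread (adjusted p = 0.0573), so no direction is given for it.

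Among genes that process chemokines, Dpp4, a protease that clips and inactivates several of them, was higher by 3.83-fold (adjusted p = 0.0167 by limma), with 0.85, 0.74 and 1.12 in the ASXL1-MT arrays against -1.52, -0.83 and -0.76 in the mock arrays, and it kept its call in 3 of 6 fits with 1 array left out. Tpst1, which adds sulfate to receptor tyrosines, was higher by 1.71-fold and lost its call with equal array medians (adjusted p = 0.0709), quantile normalization (adjusted p = 0.0858) and cyclic loess (adjusted p = 0.0809). In the chemokine-like factor family Cmtm4 was higher by 2.35-fold, Cmtm6 lower by 1.72-fold, and Cmtm3 higher by 1.57-fold, the last with its call lost under the same 3 normalizations (adjusted p from 0.0563 to 0.0574). With 1 array left out Cmtm4 passed in 1 of 6 fits, and Cmtm6, Cmtm3 and Tpst1 in 0.

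**Figure D5:**
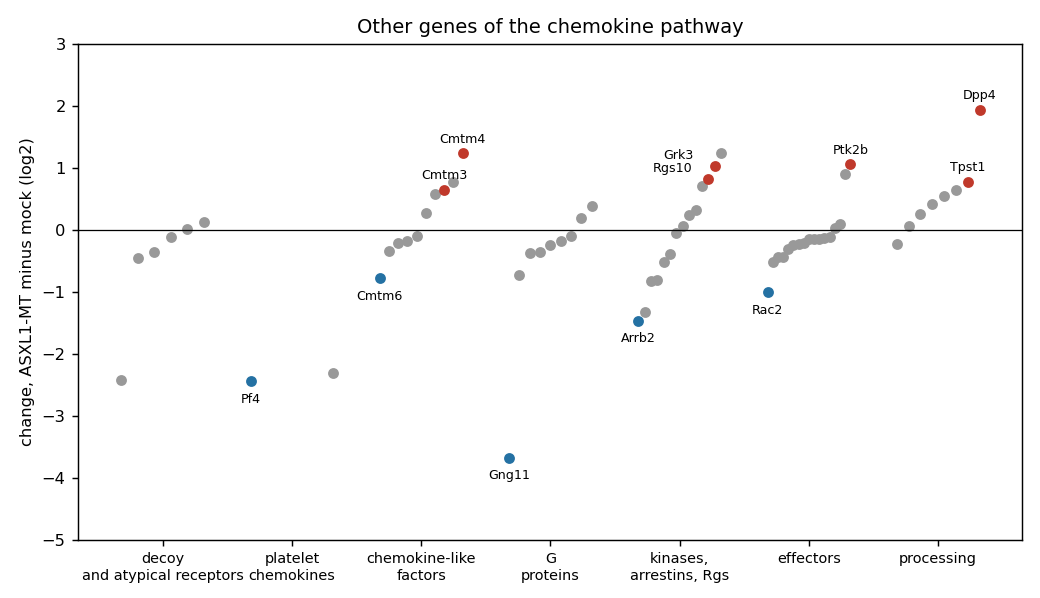
Change (ASXL1-MT mean minus mock mean, log2 scale) of 66 other genes of the chemokine pathway in 7 lists, with 1 point a gene. Red marks the 7 higher and blue the 5 lower genes at an adjusted p under 0.05, with their symbols, and grey the rest. Ptk2b is drawn at the mean of its probe sets, 1.06, and was -0.53 on bright probe sets alone.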

How the data were processed

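The table used here holds 6 Affymetrix arrays. The signals came from MAS5, per the submitters' processing notes. The deposited table holds log2 values, by the reading used here, centred on each probe set's median. The log base, the centring and any normalization between arrays are not given in the sources used here, and the centring was read from the values, whose row medians were 0 to within 5e-07. A probe set was called bright where its 3 highest values lay on the rounding step of 20 binary places that single-precision logs of 8 or more have, within 0.1 of a step.

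Groups came from sample titles. The lmFit and eBayes functions of limma (version 3.58.1, R version 4.3.3) were run with group as the only term over all 45037 probe sets and over 18193 genes (mean of a gene's probe sets with 1 symbol, of which there were 34945). P-values were two-sided and adjusted by Benjamini-Hochberg over all features, with a threshold of 0.05. The fit was tried on simulated data with independent noise, which checks only that planted changes are recovered and not the calls made here. Intervals are unadjusted 95% intervals. The number of arrays limits the precision.

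The members and lists were chosen with earlier results of these data known. The naming rule gave array values for each member past the threshold, for up to 3 others of smallest p in each role, for members with clearly opposed probe sets, and named the called pathway genes. Array values of Ccl3 and Ccrl2, and the values of Ppbp and the named marker genes, were chosen after they were seen. Alternatives were 3 normalizations, trend and robust settings, bright probe sets alone, a replicate block, the probe set of smallest spread, and leaving out each array.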

Additional observations from a re-analysis of the deposited data

How the results depend on the processing

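With 3 arrays a group, fewer probe sets were called whichever array was left out, though Ccl6 kept its gene call in all 6 such fits. Without 1 array the count ran from 66 to 1142 of all probe sets (3646 with all), 0 to 2 of 68 member probe sets (8 with all), 1 to 5 of 44 member genes (5 with all) and 0 to 9 of 66 pathway genes (12 with all). Trend and robust settings gave 5816 calls over all probe sets and 11 among members, which added Ccl28 1455577_at and the Ccr9 probe sets 1421919_a_at and 1421920_a_at. Bright probe sets alone gave 6778 calls among 17205, 5 of 21 member probe sets, 3 of 15 member genes and 26 of 53 pathway genes. The shares of probe sets called there, 23.8% of members and 39.4% of all, are for that filter alone. No share over all genes is given for that filter, so nothing is read from its gene counts. The replicate number was tried as a block because both groups are numbered 1 to 3. Same-numbered arrays had correlations of -0.01 in their deviations from the group means (-0.0088, -0.0116 and -0.0090). The values thus show no pairing by number, but they cannot tell whether same-numbered samples were prepared together. With this replicate block the counts were 0 for all probe sets, member probe sets, member genes and pathway genes. Of all probe sets called, the share that was higher went from 58.4% in the deposited values to 49.9% (equal array medians), 47.9% (quantile) and 46.2% (cyclic loess), and those of pathway genes went from 7 of 12 to 5 of 12 in each of the 3. Taking each gene's least variable probe set turned the sign of Ccr9 (-0.15) and Ptk2b (-0.53), and Ptk2b turned on bright probe sets too (-0.53). By that choice Cxcl9 (3.80, adjusted p = 0.00722), Cxcl14 (2.79, adjusted p = 0.0212) and Ccl28 (1.07, adjusted p = 0.0424) passed as genes by limma. The choice used the spread within groups in these same arrays, which favours small p-values, so these passes are not read as results. The cause of these differences was not tested.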
